A study of Mus musculus with 6 samples.

Results

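The genes described here are 10 carriers of water, glycerol, urea and sodium across cell membranes: the aquaporins Aqp3, Aqp4, Aqp5, Aqp7, Aqp9 and Aqp11, the urea transporters Slc14a1 and Slc14a2, and the epithelial sodium channel subunits Scnn1a and Scnn1b. They were chosen by name, as all non-control probes whose gene name in the files was one of these 10, which gave 22 probes for 10 of the 36610 gene names on the array. The arrays hold total RNA of whole ureters taken from 2-month-old mice 4 days after unilateral ureteral obstruction (UUO), an operation in which one ureter is tied off so that urine backs up towards the kidney.

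One group of 3 arrays came from mice labelled Col17a1-WT and the other group of 3 from mice labelled Col17a1-KO, all on the C57BL/6N background. Col17a1 encodes collagen XVII, a transmembrane protein of the hemidesmosome, the junction that holds basal epithelial cells on their basement membrane. Every array, WT included, came from an obstructed ureter, so no value here refers to a ureter without UUO. KO replicate 3 came from a female and the other 5 arrays from males. The labels do not describe how the Col17a1 allele was made, nor whether 1 array held the RNA of 1 mouse or of several. The p-values therefore measure the spread between these arrays, which may be technical in part. The Col17a1-KO arrays came from both sexes, so they were not all technical repeats of 1 sample.

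Aquaporins are tetrameric membrane pores. Some pass water alone, whereas the aquaglyceroporins Aqp3, Aqp7 and Aqp9 also pass glycerol and other small uncharged solutes. Slc14a1 (UT-B) and Slc14a2 (UT-A) are passive urea carriers, and Scnn1a, Scnn1b and Scnn1g form the amiloride-sensitive sodium channel of tight epithelia. The urothelium that lines the ureter is a tight barrier to urine, and several of these carriers are known from it or from the kidney collecting duct.

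Each value is the log2 of Agilent's processed signal minus the 75th percentile of the same array, so 0 is the signal of that percentile and each unit is a doubling. Different probes have different brightness per molecule, so values are compared between arrays and not between probes. The 75th percentile lay between 143.7 and 164.9 signal units, and between 35482 and 36568 of 56605 probes per array were well above background. Correlations between arrays over all genes ran from 0.977 to 0.993. The brighter of 2 Col17a1 probes read -2.33, -0.80 and -0.39 in WT and 0.50, 0.53 and 0.40 in the other group. The dimmer one read -3.34, -2.76 and -2.70 in WT and -1.76, -1.80 and -1.94 in the other group. On both probes every array labelled KO was above every WT array, so the signal of the targeted transcript was higher there, not lower. The files do not say whether these probes lie inside the deleted stretch, and the group is called KO-labelled throughout. WT replicate 2 is the array with kidney transcripts: of 7 kidney tubule and podocyte genes well above background on all 6 arrays, 6 were highest there. The differences of the 9 measured genes and the medians of the lists are therefore given with and without that array. Of markers of the labelled tissue, all 9 genes of the superficial urothelium list and all 8 of the smooth muscle list were measured.

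Of the 22 probes, 15 cleared Agilent's background call in all 3 arrays of 1 group or of both, 14 of them in all 6 arrays, and 4 cleared it in none. These 15 probes cover 9 of the 10 genes, and each gene was tested on its brightest such probe. None of the 9 genes passed an adjusted p of 0.05 in limma's moderated test, and their adjusted p-values ran from 0.418 to 0.999. Over all 22259 genes tested the share passing was 0.00%, and the lowest adjusted p was 0.229. The 9 genes split into 5 that were higher and 4 that were lower in the KO-labelled group, with a median log2 difference of 0.00083, against -0.00086 over all genes, of which 49.8% were higher. At an unadjusted limma p under 0.05 there were 2 genes, Aqp3 on the higher side and Slc14a2 on the lower side. The share of all genes at that level was 4.35% on the higher side and 4.70% on the lower side. The same pair was the only one of the 9 genes whose groups did not overlap. Over all genes, 7.28% had every KO-labelled array above every WT array, and 8.13% every KO-labelled array below. An exact two-sided permutation of 3 arrays against 3 cannot give a p below 0.1.

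**Figure D1:**
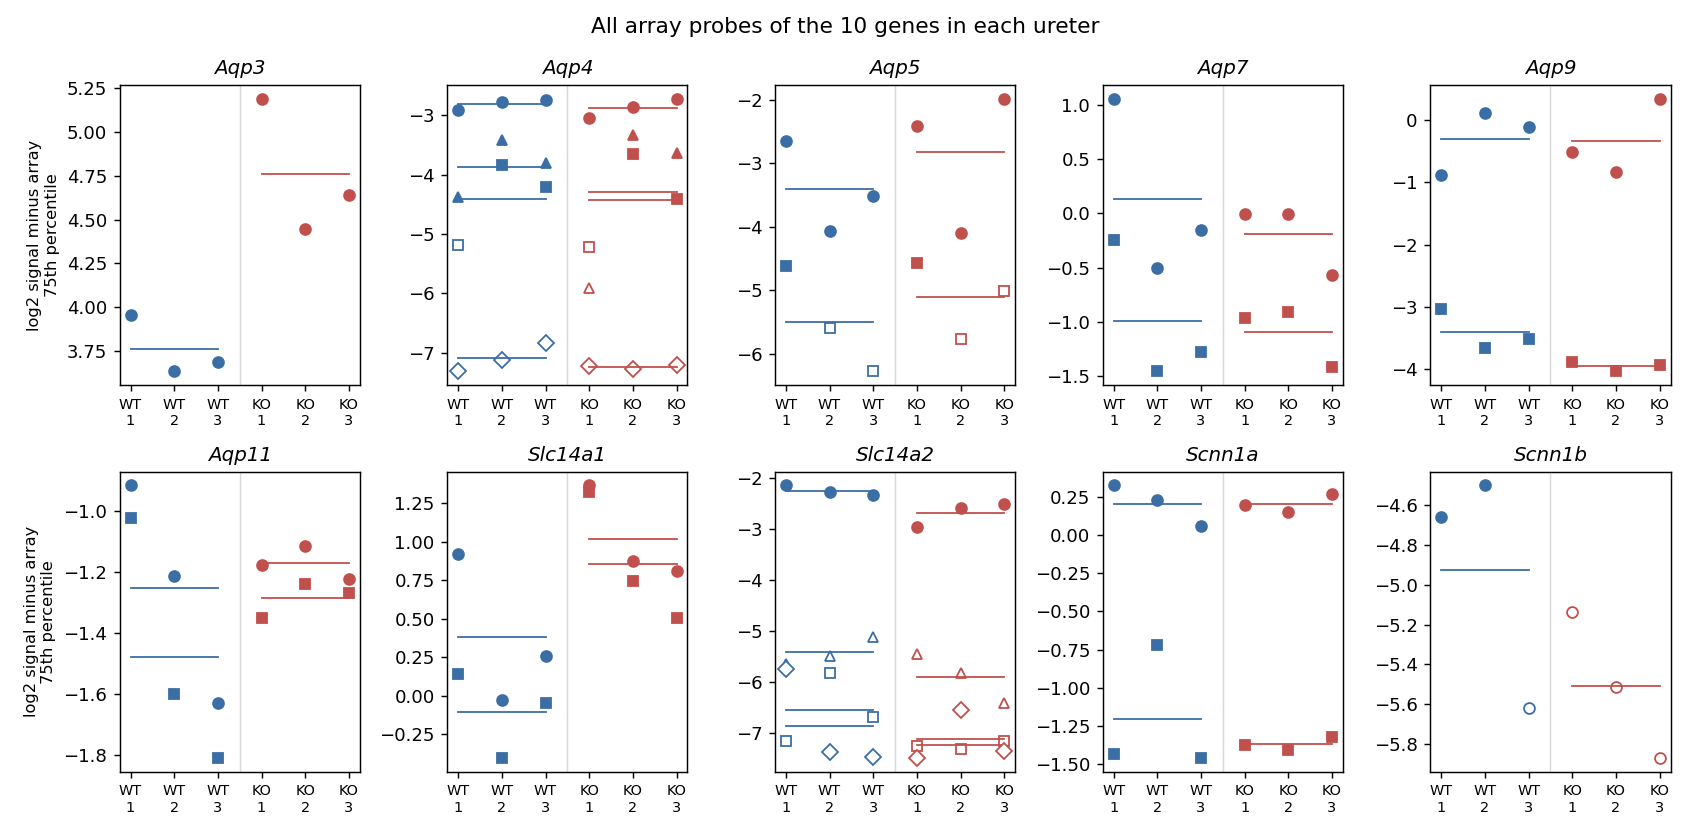
Log2 signal minus the array's 75th percentile (y axis, its own range in each panel) for every probe of the 10 genes in the 3 WT (blue) and 3 KO-labelled (red) arrays, with 1 marker shape per probe, open markers below Agilent's background call, and lines at the group means. The Aqp3 arrays read 3.63 to 3.96 in WT and 4.45 to 5.19 in the KO-labelled group, while the Scnn1a circles overlap around a mean of 0.20 in both groups.

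Aqp3, the water and glycerol channel of the basolateral membrane of collecting duct cells and of stratified epithelia such as epidermis and urothelium, had the largest difference among the 9 genes. Its single probe (A_51_P245090, chr4:41039962-41040021, minus strand, mm9) read 3.96, 3.63 and 3.69 in the 3 WT arrays. The same probe read 5.19, 4.45 and 4.64 in the 3 KO-labelled arrays. Each KO-labelled array was above each WT array, and KO-labelled replicate 1 was the highest of the 6. The difference was 0.9999 ± 0.21 (SE) on the log2 scale, a 2.00-fold higher mean. In limma the unadjusted p was 0.00306, which ranked 155 among all genes, and the adjusted p was 0.418, so the difference did not pass. Without WT replicate 2, the lowest of the 6 arrays, it was 0.94 with an unadjusted p of 0.0123 and an adjusted p of 0.804. Whole ureter RNA was measured, so more cells of one kind and more RNA per cell cannot be told apart here or for any gene below.

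The bases before the Aqp3 start site are shown because Aqp3 had the largest difference. They are the 250 bases before the RefSeq start (GRCm38.p6, chr4:41098184-41098433, minus strand), with matches to the searched motifs in capitals.
Aqp3 upstream: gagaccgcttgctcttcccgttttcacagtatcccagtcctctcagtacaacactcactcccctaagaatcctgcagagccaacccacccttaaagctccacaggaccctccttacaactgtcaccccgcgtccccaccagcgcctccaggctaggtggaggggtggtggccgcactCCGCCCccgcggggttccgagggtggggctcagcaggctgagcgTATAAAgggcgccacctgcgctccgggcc
The first capitals are a GC box (GGGCGG, read on the opposite strand) at -73 to -68 from the start, and the second a TATA motif (TATAAA) at -29 to -24. In the windows of 300 bases around 32851 RefSeq starts, searched on both strands, 35.7% held a GC box and 13.6% held TATAAA. Letters of AP-1 (TGANTCA), a nuclear receptor half-site (AGGTCA), the NFAT core (TGGAAA) and AP-2 (GCCNNNGGC) were searched too and are not in the Aqp3 window. The shares of all windows that hold them were 7.81%, 16.3%, 21.4% and 16.6%. AP-1 and AP-2 were searched with N for any base.

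Aqp7 is the glycerol channel of adipocytes, which also occurs in the proximal tubule. Its brighter probe (A_52_P403405, chr4:40981243-40981302, mm9) read 1.06, -0.51 and -0.16 in WT and -0.002, -0.0028 and -0.57 in the KO-labelled group. The groups overlapped, and WT replicate 1 stood above the other 5 arrays. The difference was -0.32 ± 0.42 (SE) with a limma p of 0.468, and without WT replicate 2 it was -0.64 with a p of 0.165. The second probe differed by -0.10 between the groups. The same array was also high in the adipocyte list, where the mean of 8 genes, each centred on its own 6-array mean, was 0.27 in WT replicate 1 against -0.26 and -0.14 in the other WT arrays. In the KO-labelled arrays that list stood at 0.26, 0.098 and -0.23. The median difference of the 8 genes was 0.02, and -0.07 without WT replicate 2. Whether adipocyte content had a part in the Aqp7 values was not tested.

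Aqp9, the aquaglyceroporin of hepatocytes and of leukocytes including neutrophils, read -0.88, 0.11 and -0.12 in WT on its brighter probe (A_55_P2763530, chr9:70958495-70958554, mm9). In the KO-labelled arrays it read -0.51, -0.83 and 0.34. The groups overlapped over nearly their whole range, and the difference was -0.03 ± 0.38 (SE), with a limma p of 0.932. Centred on its mean, Aqp9 was highest in KO-labelled replicate 3 (0.66) and WT replicate 2 (0.42) and lowest in WT replicate 1 (-0.57). The neutrophil list, with 8 of 8 genes measured, had the same 2 arrays at the top, at 0.69 and 0.81, and the same array at the bottom, at -0.88. The median difference of that list was -0.10, and 0.23 without WT replicate 2. The part of neutrophils in the Aqp9 values was not tested.

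A second Aqp9 probe (A_66_P126202, chr9:71015550-71015609, mm9), which the files tie to an Ensembl transcript alone, did not follow the first. It read -3.03, -3.66 and -3.51 in WT and -3.89, -4.03 and -3.92 in the KO-labelled group, with no overlap. Its difference was -0.55 ± 0.18 (SE), and in the fit over all kept probes its unadjusted p was 0.0207 and its adjusted p 0.481. The files do not say whether both probes detect the same transcripts.

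**Figure D2:**
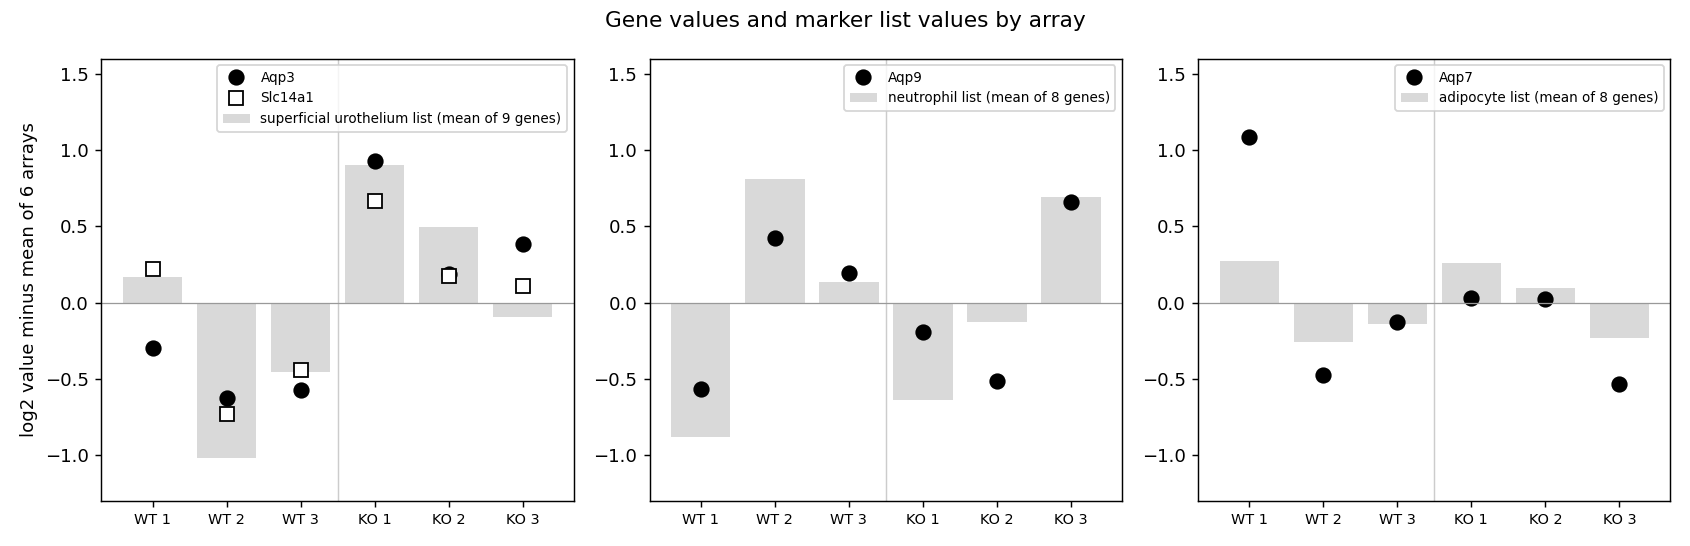
Values of 4 genes (symbols) and of 3 marker lists (grey bars, mean of the list's genes) in each array, all as log2 value minus the mean of the 6 arrays. Aqp3 and Slc14a1 are drawn over the superficial urothelium list, Aqp9 over the neutrophil list and Aqp7 over the adipocyte list, and the 2 arrays highest in Aqp9, KO-labelled replicate 3 (0.66) and WT replicate 2 (0.42), were also the 2 highest in the neutrophil list. Like the superficial urothelium list, the smooth muscle and mesothelium lists (not drawn) were lowest in WT replicate 2 and highest in KO-labelled replicate 1.

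Aqp5, the apical water channel of salivary, lacrimal and airway glands, was dim and the most variable of the 9 genes. Its brighter probe (A_55_P1990121, chr15:99425138-99425197, plus strand, mm9) read -2.64, -4.07 and -3.51 in WT and -2.40, -4.10 and -1.98 in the KO-labelled arrays. The lowest array of the 6 and the highest were both KO-labelled, and the 6 arrays spanned 2.12 on the log2 scale. The difference of 0.58 ± 0.62 (SE) had a limma p of 0.385, and without WT replicate 2 it was 0.25. It was 1.22 with an unadjusted p of 0.0371 without KO-labelled replicate 2, 0.16 without KO-labelled replicate 3, and 0.14 with normexp background correction, a model-based alternative to Agilent's. The gene's second probe was well above background on 2 of 6 arrays, WT replicate 1 and KO-labelled replicate 1, and was not tested. Its 60 bases (A_55_P2071236, chr15:99424655-99424714, plus strand, mm9) are shown because this probe lies nearer the start of the gene than the brighter one and gave a signal near background.
Aqp5 probe: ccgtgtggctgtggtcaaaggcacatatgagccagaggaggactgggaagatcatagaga
Its values were -4.63, -5.60 and -6.28 in WT and -4.57, -5.76 and -5.01 in the KO-labelled group. Both probes were higher in replicate 1 of each group than in replicate 2.

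Aqp11, an unusual aquaporin of the endoplasmic reticulum whose loss in mice gives cystic kidneys, was measured by 2 probes on all 6 arrays. The brighter one (A_55_P1995507, chr7:104874889-104874948, minus strand, mm9) read -0.92, -1.21 and -1.63 in WT and -1.18, -1.11 and -1.22 in the KO-labelled group. The 3 KO-labelled values lay inside the range of the WT values. Its difference was 0.08 ± 0.19 (SE), with a limma p of 0.676. The second probe is shown because its 60 bases map across 2325 bases of the genome (A_55_P2730441, chr7:104875158-104877482, minus strand, mm9), so they come from stretches of the transcript that lie apart in the genome.
Aqp11 probe: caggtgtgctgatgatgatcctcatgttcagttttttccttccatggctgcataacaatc
This probe read -1.02, -1.60 and -1.81 in WT and -1.35, -1.24 and -1.27 in the KO-labelled group. Both probes put WT replicate 1 highest and WT replicate 3 lowest, and the second differed by 0.19 between the groups.

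Scnn1a, the alpha subunit without which the sodium channel is not functional, was the steadiest of the 9 genes. Its brighter probe (A_66_P119584, chr6:125293939-125293998, plus strand, mm9) read 0.32, 0.23 and 0.06 in WT and 0.20, 0.15 and 0.27 in the KO-labelled arrays. The 6 arrays spanned 0.27 on the log2 scale and the groups overlapped. The difference was 0.00083 ± 0.11 (SE), with a limma p of 0.994. A second probe (A_51_P213691) read -1.43, -0.72 and -1.46 in WT and -1.38, -1.40 and -1.32 in the KO-labelled group. WT replicate 2 alone stood apart on it, 0.68 above the median of the other 5 arrays.

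Scnn1b, the beta subunit, was near the detection limit. Its only probe is shown because it is the sole evidence on this gene (A_55_P2934457, chr7:129042869-129042928, plus strand, mm9).
Scnn1b probe: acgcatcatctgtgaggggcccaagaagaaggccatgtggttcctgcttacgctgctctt
It was well above background in WT replicates 1 and 2 and in no other array, and so was not among the genes tested. It read -4.66, -4.50 and -5.62 in WT and -5.14, -5.51 and -5.87 in the KO-labelled group. Each KO-labelled array was set at the higher of the probe's own value and that array's lowest signal well above background. The WT mean was 1.15-fold higher than the mean of those values. This is no strict bound, because KO-labelled replicate 1 (-5.14) lay above that lowest signal (-5.17) without being called. WT replicate 3 entered at its own value below background, and it lay below KO-labelled replicates 1 and 2. The WT mean also holds WT replicate 2, the array with kidney transcripts. WT replicate 2 was the highest array, 1.01 above the median of the others. Scnn1g, the gamma subunit and no member of the set of 10, was measured on all 6 arrays and read -1.42, -3.85 and -4.56 in WT and -1.37, -2.07 and -3.11 in the KO-labelled group. Its log2 difference of 1.09 ± 0.86 (SE) had a limma p of 0.252, and the groups overlapped. Without WT replicate 2 it was 0.81.

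Aqp4, the water channel of astrocyte end feet that also lies basolaterally in the collecting duct, had 4 probes. The brightest (A_55_P2742038, chr18:15562690-15562749, mm9) read -2.92, -2.77 and -2.75 in WT and -3.06, -2.86 and -2.72 in the KO-labelled group. The groups overlapped and the 6 arrays spanned 0.33. The difference was -0.07 ± 0.12 (SE), with a limma p of 0.602. Of the other 3 probes, one was well above background on 5 arrays, one on 4 and one on none. The probe called on 5 arrays (A_55_P2031939) read -4.38, -3.42 and -3.80 in WT and -5.91, -3.33 and -3.63 in the KO-labelled group. KO-labelled replicate 1 was the array not called. Its difference was -0.42 ± 0.68 (SE), with a limma p of 0.556 in the fit over all kept probes. With the mean of the gene's probes, Aqp4 differed by -0.25.

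Slc14a1, the urea transporter UT-B of red cells, descending vasa recta and urothelium, had the next largest difference. Its brighter probe (A_51_P312336, chr18:78298526-78298585, mm9) read 0.92, -0.03 and 0.26 in WT and 1.37, 0.88 and 0.81 in the KO-labelled group. Only WT replicate 1 reached the level of the KO-labelled arrays. The difference of 0.63 ± 0.28 (SE), a 1.55-fold higher mean, had an unadjusted limma p of 0.0612 and an adjusted p of 0.570. Without WT replicate 2 it was 0.43, with an unadjusted p of 0.174, and without WT replicate 1 it was 0.90, with an unadjusted p of 0.00718 and an adjusted p of 0.373.

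The other Slc14a1 probe (A_55_P2494857, chr18:78296835-78296894, mm9) lay in the same gene and did separate the groups. It read 0.14, -0.41 and -0.05 in WT and 1.32, 0.75 and 0.50 in the KO-labelled group. The difference was 0.96 ± 0.25 (SE), with an unadjusted p of 0.00707 and an adjusted p of 0.444 in the fit over all kept probes. Both probes gave the same order of the 6 arrays at the ends, with KO-labelled replicate 1 highest and WT replicate 2 lowest.

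The superficial urothelium list was on the same side as Aqp3 and Slc14a1. All 9 of its genes were measured and all 9 were higher in the KO-labelled group, 4 of them at an unadjusted limma p under 0.05 and none at an adjusted one, with a median difference of 0.88. Krt20, a keratin of umbrella cells, was higher by 0.88 ± 0.21 (SE), with an adjusted p of 0.433. The uroplakin gene Upk3b was higher by 1.04 ± 0.42 (SE), with an adjusted p of 0.536. The other 4 uroplakin genes, Upk1a, Upk1b, Upk2 and Upk3a, differed by 0.66 to 1.11, with unadjusted p-values of 0.0731 to 0.332. Without WT replicate 2 the list's median was 0.67, with 9 of 9 higher and 2 at an unadjusted p under 0.05. The list's mean value, centred on the 6 arrays, was 0.17, -1.02 and -0.45 in WT and 0.90, 0.49 and -0.09 in the KO-labelled group, so WT replicate 1 overlapped with KO-labelled replicate 3. In the basal urothelium list 5 of 7 genes were higher and 2 lower, with 2 higher and 1 lower at an unadjusted p under 0.05 and a median of 0.35 (0.42 without WT replicate 2). The smooth muscle list (8 of 8 genes higher, none at an unadjusted p under 0.05, median 0.55) and the mesothelium list (5 of 5 higher, 3 at that level, median 0.82) were on the higher side as well. Their medians without WT replicate 2 were 0.27 and 0.73, and Upk3b is counted in both the superficial urothelium and the mesothelium lists. Centred the same way, the smooth muscle list stood at 0.16, -0.78 and -0.19 in WT and 0.65, 0.39 and -0.23 in the KO-labelled group. The mesothelium list stood at -0.04, -0.60 and -0.50 in WT and 0.62, 0.25 and 0.27 in the KO-labelled group. Like the superficial urothelium list, both were lowest in WT replicate 2 and highest in KO-labelled replicate 1. In the mesothelium list the genes at an unadjusted p under 0.05 were Krt19 (0.82, the list's median), Msln (1.48) and Upk3b (1.04). Lrrn4 differed by 0.47 and Wt1 by 0.0094. The endothelium list had 6 genes higher and 2 lower, none at an unadjusted p under 0.05, and a median of 0.07 (0.08 without WT replicate 2). The macrophage list was on the other side, with 8 of 8 genes lower, 6 of them at an unadjusted p under 0.05, none at an adjusted one, and a median of -0.54 (-0.47 without WT replicate 2). Its mean value was 0.13, 0.43 and 0.30 in WT and -0.35, -0.52 and 0.001 in the KO-labelled group, with no overlap. The part of any of these cell types in the Aqp3, Slc14a1 and Slc14a2 values was not tested.

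Slc14a2, the urea transporter UT-A of the collecting duct and thin descending limb, was lower in the KO-labelled group on the 1 of its 4 probes that was well above background. That probe (A_55_P1964028, chr18:78379981-78380040, mm9) read -2.14, -2.27 and -2.32 in WT and -2.96, -2.58 and -2.50 in the KO-labelled group. Every KO-labelled array was below every WT array. The difference was -0.44 ± 0.15 (SE), 0.738 of the WT mean, with an unadjusted limma p of 0.0261 and an adjusted p of 0.493. Without WT replicate 2 it was -0.45, with an unadjusted p of 0.0559, and leaving out WT replicate 1 or KO-labelled replicate 1 gave unadjusted p-values of 0.0665 and 0.0725. With normexp background correction the difference was -0.15, with an unadjusted p of 0.0811. The probe was dim, with a processed signal of 20.3 to 35.7 units over the 6 arrays. The other 3 probes were well above background on none of the 6 arrays.

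Markers of the collecting duct, where Slc14a2, Aqp3 and the sodium channel subunits are known from the kidney, were measured only in part. Of 9 list genes 5 were measured, and Hsd11b2, Avpr2, Atp6v1b1 and Slc26a4 were not. Of the 5, 4 were higher in the KO-labelled group and 2 reached an unadjusted limma p under 0.05. These 2 were Elf5 at 1.22 ± 0.35 (SE) and Fxyd4 at 1.37 ± 0.42 (SE), neither with an adjusted p under 0.05. Elf5 was dim, from -4.67 in WT replicate 2, its lowest array, to -2.67 in KO-labelled replicate 2. Foxi1 went the other way, lower by 0.70 ± 0.39 (SE), with an unadjusted limma p of 0.118. Foxi1 was highest at -2.48 in WT replicate 2, which holds kidney transcripts. Its next highest value was -3.51, in KO-labelled replicate 1. Leaving WT replicate 2 out brought the Foxi1 difference to -0.34. Slc4a1, higher by 0.52, was dim too, from -4.85 in WT replicate 1 to -3.51 in KO-labelled replicate 2, and is also in the erythroid list. The list's value was -0.34, 0.09 and -0.51 in WT and 0.39, 0.53 and -0.17 in the KO-labelled group, and its median difference was 0.52 (0.67 without WT replicate 2). Aqp2, the vasopressin-regulated water channel of principal cells, was measured on all 6 arrays and differed by -0.03 ± 0.15 (SE). Its range was -2.75 to -2.31.

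**Figure D3:**
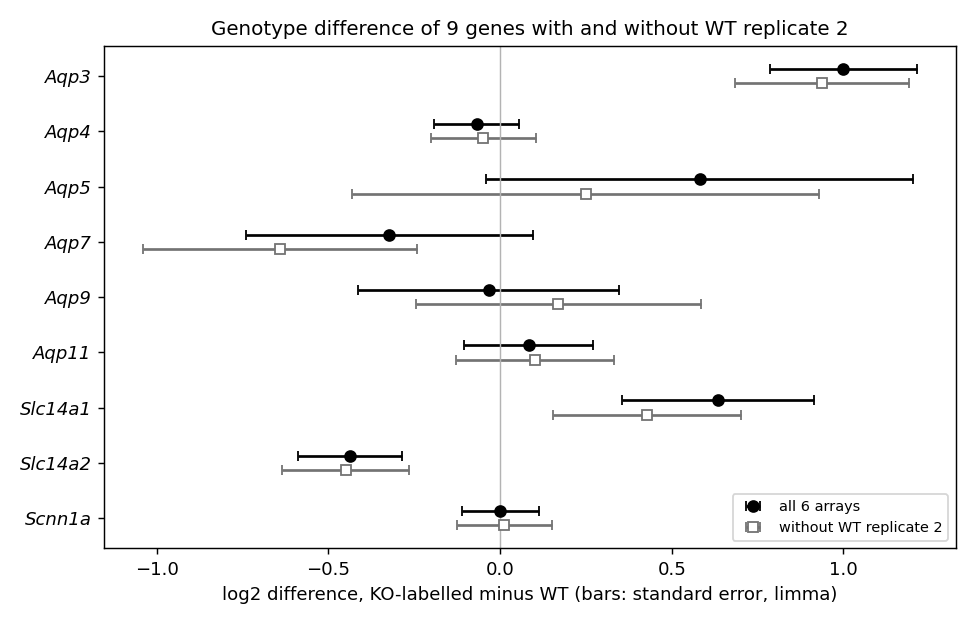
Log2 difference, KO-labelled minus WT (x axis), of the 9 genes with a measured probe, on all 6 arrays (black circles) and without WT replicate 2 (open squares), with bars of 1 standard error from limma. Aqp3 at 0.9999 and Slc14a1 at 0.63 lie on the higher side and Slc14a2 at -0.44 on the lower side in both settings, whereas Aqp9 moves from -0.03 to 0.17.

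The array of WT replicate 2 was set against the other 5 because it holds kidney transcripts. Its kidney list value was 1.53, against -0.37 to -0.19 in the other 5 arrays. The median shift of the 8 measured genes of the kidney list was 2.17 on the log2 scale, or 2.26 over the 7 of them well above background on all 6 arrays, and Slc34a1, the phosphate carrier of the proximal tubule, was higher by 4.00. The median difference of the kidney list between the groups was -0.69, and -0.02 without WT replicate 2. All 8 genes were lower in the KO-labelled group, 1 of them at an unadjusted limma p under 0.05. That gene, Lrp2, differed by -0.89 ± 0.14 (SE), with an adjusted p of 0.398, and by -0.88 without WT replicate 2. Lrp2 was not well above background on all 6 arrays. Of 18 genes in the list, 10 were not kept, among them Umod and Slc12a1. Of the 15 kept probes of the 10 carrier genes, 1 was above all other arrays in WT replicate 2, 4 were below all others and 10 lay within them, with a median shift of -0.04 and a range from -1.43 to 0.68. The probe above was the second Scnn1a probe, and the 4 below were those of Aqp3, both of Slc14a1 and the second of Aqp7.

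Carriers outside the set of 10 were mixed in that array. One Aqp6 probe (A_55_P2182955) read -1.67 in WT replicate 2 and between -7.37 and -7.17 in the other 5, and it was well above background in that array alone. Aqp6 is an anion-permeable aquaporin of collecting duct intercalated cells. Its probe measured on all 6 arrays, on which the gene was tested, read -2.70 in WT replicate 2, below the other 5 at -2.61 to -2.49. Both probes of the myo-inositol carrier Slc5a3 were highest in WT replicate 2, by 0.57 and 0.54 over the median of the others. Without WT replicate 2, the 9 genes had a median difference of 0.10, against 0.01 over all genes. Of them 6 were higher and 3 lower, with 1 (Aqp3) at an unadjusted limma p under 0.05 and none at an adjusted one. Over all genes, 6.13% reached that unadjusted level without the array.

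**Figure D4:**
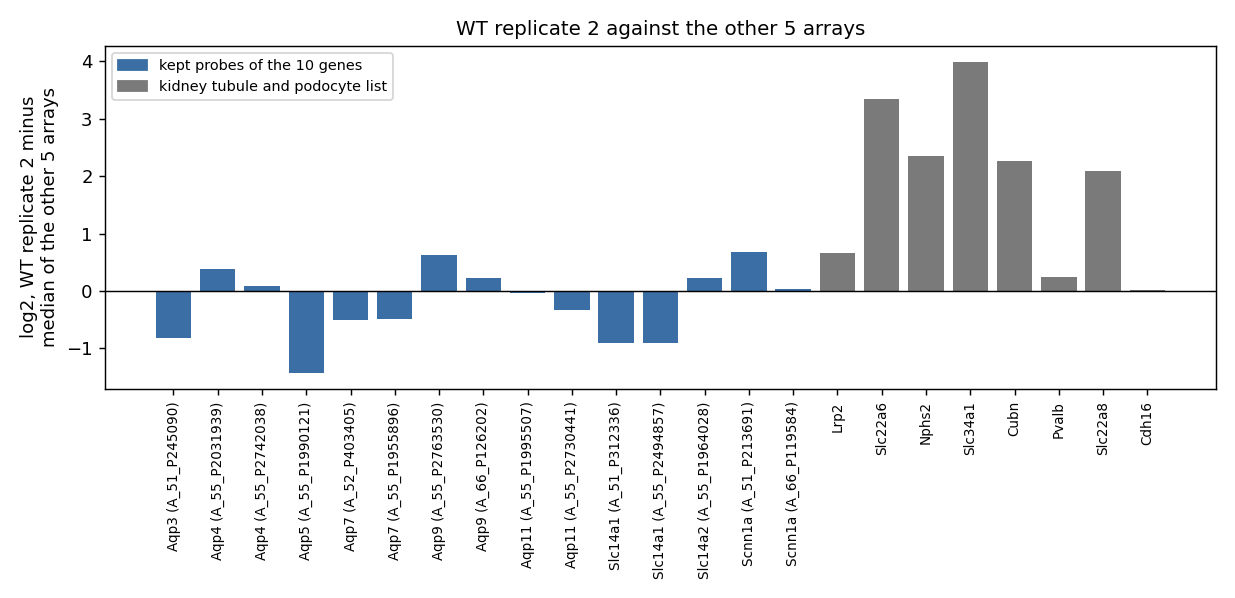
WT replicate 2 minus the median of the other 5 arrays (y axis, log2) for the 15 kept probes of the 10 carrier genes (blue) and for the 8 measured genes of the kidney tubule and podocyte list (grey). The carriers' probes lie between -1.43 and 0.68, and the kidney genes reach 4.00 at Slc34a1.

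A further list of 22 genes of water, urea and salt handling, none of them among the 10, was described beside them. Of these, 18 were measured and Aqp8, Hsd11b2, Avpr2 and Mip were not. Of the 18, 11 were higher and 7 lower in the KO-labelled group, with a median difference of 0.06 (0.05 without WT replicate 2), and 0 had an adjusted limma p under 0.05. At an unadjusted p under 0.05 there were 2 higher and 2 lower. Akr1b3, the aldose reductase that makes the osmolyte sorbitol, was 0.55 ± 0.16 (SE) higher, with an adjusted p of 0.457, and read 6.56, 6.31 and 6.60 in WT and 7.16, 7.18 and 6.77 in the KO-labelled group. Its groups did not overlap. St14, the gene of matriptase, a membrane protease that activates the sodium channel, was 0.52 ± 0.19 (SE) higher, with an adjusted p of 0.514. Slc5a3, the myo-inositol carrier that brings in another osmolyte, was 0.63 ± 0.22 (SE) lower, with an adjusted p of 0.493. Nr3c1, the glucocorticoid receptor, was 0.37 ± 0.15 (SE) lower, with an adjusted p of 0.549. Sgk1, the kinase that raises sodium channel number at the membrane, differed by 0.34 ± 0.14 (SE) with an adjusted p of 0.555. Prss8, the protease prostasin, differed by 0.43 ± 0.30 (SE) with an adjusted p of 0.707.

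Candidates for the genes nearest to a carrier were 13998 other genes with a RefSeq symbol that were well above background on all 6 arrays. Predicted genes and those with clone-type names (such as Gm and Rik) were left out. The nearest were found by the root mean square difference of mean-centred log2 values over the 6 arrays. For Aqp3, whose own standard deviation over the 6 arrays was 0.61, they were Tmem54 at 0.11, Bmp7 at 0.12 and Gdpd3 at 0.12. For Slc14a1 they were Mgst2 at 0.05, Amt at 0.06 and Bcam at 0.07, against a standard deviation of 0.50. For Slc14a2 they were Gask1b at 0.07, Gngt2 at 0.08 and Parp8 at 0.08. Aqp9 lay nearest to Egr1 at 0.09, Emilin2 at 0.10 and Lilra6 at 0.13, and Aqp7 to Cd59b, Mcrip2 and Lurap1. The nearest genes were Mrps27, Get3 and Zfp429 for Aqp4, Klf12, Gpha2 and Car1 for Aqp11, and Ccdc157, Cdkn1b and Trpm7 for Scnn1a. No likeness was tested.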

How the data were processed

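Total RNA of mouse ureters was labelled with Cy3 and hybridised to 6 one-colour Agilent arrays of 62976 spots. The deposited files hold spot intensities from Agilent Feature Extraction 12.0.3.1, per the submitters' processing notes, with probe coordinates on mm9, per the file headers. The processed signal is background-subtracted intensity, and no normalisation between arrays is stated in the sources used here.

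From these values, 59305 non-control spots were used, 84 to 142 flagged outlier spots per array were set missing, and 0 were saturated. Spots of one probe were averaged to 56605 probes. Each array's 75th percentile was subtracted from the log2 signal. A probe was kept if Agilent called it well above background in all 3 arrays of 1 group or of both, and a gene was its brightest kept probe by mean over 6 arrays. Gene names followed RefSeq where the accession matched (35405 probes) and the file otherwise (21200), and 1 symbol changed. Of the genes tested, 15809 carried a RefSeq symbol and 6450 another name.

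The contrast of 3 KO-labelled against 3 WT arrays was fitted over all genes with limma 3.58.1 in R 4.3.3 (lmFit, eBayes) and adjusted by Benjamini-Hochberg at 0.05, after a test on simulated data. All 10 genes are named. In the other lists up to 6 genes with the smallest unadjusted p could be named, and 3 nearest genes per carrier. Upk2, Upk3a, Scnn1g, Aqp2 and Aqp6 were described beyond that rule. The nearest genes of Aqp5 and the erythroid and Schwann cell lists are not reported here. The 10 genes, the 12 marker lists and the list of 22 genes were chosen with earlier results of these data known. Figures were drawn in Python 3.11.15 with matplotlib 3.10.9. Promoter sequences are from RefSeq's table and probe sequences from the files. Alternatives included normexp background, other centring and filters, a replicate block, the kidney list as a covariate and each array left out.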

Additional observations from a re-analysis of the deposited data

How the results depend on the processing

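Under 17 alternatives no carrier gene passed an adjusted p of 0.05. The direction held under all 17 for Aqp3 (0.78 to 1.16), Slc14a1 (0.43 to 0.90) and Slc14a2 (-0.54 to -0.15, the last with normexp background). Over all genes 1 passed with the replicate block (an immunoglobulin heavy constant gamma 2C transcript) and 0 to 1 with an array left out, the 1 being an immunoglobulin gamma 1 constant transcript without KO-labelled replicate 2. Deviations of same-numbered arrays from their group means had correlations of 0.53, -0.15 and -0.03. Arrays of different number ran from -0.45 (WT replicate 2 with KO-labelled replicate 1) to 0.46 (WT replicate 2 with KO-labelled replicate 3). WT replicate 3 with KO-labelled replicate 2 had 0.32. The numbers were therefore not taken to pair the samples. In this balanced layout the replicate block leaves every difference as it is (Aqp3 at 0.9999) and moves p alone: the unadjusted limma p was 0.00851 for Slc14a1 and 0.0551 for Slc14a2, with adjusted values of 0.479 and 0.553. With an array left out, the median of the 9 genes ran from -0.04 to 0.14, the highest without WT replicate 1, and was -0.13 without WT replicate 2 and KO-labelled replicate 3.

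Other carriers changed sign, and the cause was not tested. Scnn1a was -0.00098 with normexp background, -0.082 with the mean of its probes, -0.019 without WT replicate 2 and KO-labelled replicate 3, and -0.071 to 0.062 with an array left out. Aqp5 was -0.18 without those 2 arrays and 0.16 to 1.22 with an array left out. Aqp9 was 0.16 with the kidney list as covariate and -0.37 to 0.22 with an array left out. With an array left out, Aqp7 ran from -0.64 to 0.14, Aqp11 from -0.10 to 0.25 and Aqp4 from -0.15 to 0.019. Signals near background limit Scnn1b, Aqp4, Aqp5, Slc14a2 and the second Aqp9 probe. Without the filter on dim probes Scnn1b differed by -0.58 ± 0.35 (SE), with an adjusted limma p of 0.846.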
